A study of Saccharomyces cerevisiae with 42 samples.

Results

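The enzymes of the tricarboxylic acid cycle were followed through their transcripts in budding yeast leaving a saturated culture, with and without the sphingolipid synthesis inhibitor myriocin (Myr). The genes were taken as the rows of the deposited table whose identifier belongs to CIT1, ACO1, IDH1, IDH2, KGD1, KGD2, LSC1, LSC2, FUM1 or MDH1, and all 10 were found among the 6106 genes of the table. RNA-seq was done on 42 libraries of prototrophic BY4741, a haploid laboratory strain of mating type a, in 14 groups of 3: vehicle (0.3% ethanol) or Myr (700 ng/ml in 0.3% ethanol) at each of 7 hours, from 0 h, the time of dilution, to 6 h. All groups were grown at 30°C in 200 ml cultures begun at an A600 of 0.15, and they differed in the drug, the hour and the mix of spike-in RNAs. According to the methods, 1 flask gave all the hours of a replicate, but the column labels hold no replicate number, only a letter. Vehicle columns use 4 letters, 3 of them at each hour, and Myr columns use 3. What the letter stands for is not stated. Each library was therefore treated as a separate member of its group, and p-values measure the spread between libraries.

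The cycle oxidizes acetyl-CoA in the mitochondrial matrix, and its reduced cofactors feed the respiratory chain. Yeast growing fast on glucose ferments and needs the cycle mainly for precursors such as 2-oxoglutarate, the source of glutamate, while cells that have used up glucose respire. Genes of the first steps up to 2-oxoglutarate can be driven by the Rtg factors, which respond to mitochondrial state and nitrogen supply, and many cycle genes are driven by the Hap complex, which is active in respiring cells. In the order of the reactions, CIT1 encodes citrate synthase, ACO1 aconitase, IDH1 and IDH2 the subunits of the NAD-dependent isocitrate dehydrogenase, KGD1 and KGD2 the E1 and E2 parts of 2-oxoglutarate dehydrogenase, LSC1 and LSC2 the alpha and beta subunits of succinyl-CoA ligase, FUM1 fumarase and MDH1 the mitochondrial malate dehydrogenase. Succinate dehydrogenase stands between the ligase and fumarase and was counted apart, with the other genes of the pathway.

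The coding sequences lie on 8 chromosomes of the R64 genome, and 0 of their stretches of 31 bases recur in the coding sequence of another gene. The 300 bases before each start codon were searched on both strands for CCAAT, the core of Hap sites, and for GTCAC, the core of Rtg sites. CCAAT was found before 7 of the 10 genes (CIT1, ACO1, IDH1, IDH2, KGD1, FUM1 and MDH1), beside 41.8% of 6001 such windows of the genome. GTCAC was found before KGD1, LSC2 and FUM1, which is 3 of 10 beside 26.5% of all windows. CCCCGC, a core of Mig1 sites, was found before LSC2 (3.0% of all windows), and CCCCT, the stress response element, before CIT1, KGD2, LSC1 and MDH1 (22.2%). No match shared a base with another, and a match is a run of letters and not a shown site. The 200 bases that end 101 bases before the start codon are given for 5 genes on which the comparisons below turn: ACO1 and CIT1, neighbours in the cycle whose ratio was followed, KGD1, the least abundant at 1 h, MDH1, which changed most over time, and LSC2, the gene raised most by Myr. They are read 5′ to 3′ on the strand of the gene from the RefSeq R64 genome, and capitals mark CCAAT or its reverse complement ATTGG. The other runs in capitals are GTCAC or its reverse complement GTGAC.
CIT1, chrXIV:631162-631361, minus strand: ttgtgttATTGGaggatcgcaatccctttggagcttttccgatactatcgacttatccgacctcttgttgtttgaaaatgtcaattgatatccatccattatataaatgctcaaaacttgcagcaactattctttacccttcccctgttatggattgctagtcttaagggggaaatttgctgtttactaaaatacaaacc
ACO1, chrXII:737649-737848, minus strand: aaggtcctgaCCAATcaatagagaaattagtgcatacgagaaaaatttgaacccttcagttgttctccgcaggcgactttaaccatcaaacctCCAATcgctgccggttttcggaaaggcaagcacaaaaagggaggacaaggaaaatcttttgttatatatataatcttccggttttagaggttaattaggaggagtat
KGD1, chrIX:122389-122588, plus strand: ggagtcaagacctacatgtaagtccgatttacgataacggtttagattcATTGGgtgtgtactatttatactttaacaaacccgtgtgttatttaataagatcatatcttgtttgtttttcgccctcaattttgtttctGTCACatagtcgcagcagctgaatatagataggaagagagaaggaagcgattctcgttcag
LSC2, chrVII:979420-979619, minus strand: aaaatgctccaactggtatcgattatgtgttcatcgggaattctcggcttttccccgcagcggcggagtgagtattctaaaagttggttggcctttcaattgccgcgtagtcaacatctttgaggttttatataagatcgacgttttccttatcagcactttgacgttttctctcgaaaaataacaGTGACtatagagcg
MDH1, chrXI:278823-279022, plus strand: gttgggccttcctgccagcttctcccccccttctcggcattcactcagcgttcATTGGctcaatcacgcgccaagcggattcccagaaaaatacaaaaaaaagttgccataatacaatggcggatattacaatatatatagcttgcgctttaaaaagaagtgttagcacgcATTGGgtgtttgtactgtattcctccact
ACO1 has 2 CCAAT matches in its window and both lie in the printed stretch, 290 and 207 bases before the start codon. MDH1 also has 2, both on the other strand, while the IDH2 match lies 89 bases before its start codon.

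Values are TPM, transcripts per 1000000 of a library, so each is a share of its library per transcript length and levels of different genes can be set side by side. Read counts are not in the table and the depth is unknown, and in these bulk cultures fewer cells with a transcript and less of it per cell cannot be told apart. Shifts of whole libraries bear on the drug results. RPL41A, a very short ribosomal protein gene, took more than 70000 TPM in vehicle libraries 3 h A, 3 h B, 4 h B and 5 h A, and the typical gene was 0.18 higher with Myr on the log2 scale (median of all genes tested, 1 to 6 h). Drug results are therefore given as deposited and after median centring, in which each library is set to its median ratio to the mean library. The 4 markers of mating type a cells summed to between 6925 and 20327 TPM in every library and the 3 of type alpha to between 16.3 and 95.1 TPM. The 4 markers of stationary or stressed cells summed to between 15177 and 16971 TPM at 0 h, and at 1 to 6 h to between 95.2 and 656 TPM in vehicle (median 172) and between 259 and 1356 TPM with Myr (median 444).

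At 0 h, in the saturated culture, the cycle genes stood at their highest in group means, except LSC1 with Myr (highest at 6 h), and within 1 h of dilution every one of them fell. The 10 transcripts together held 4047 ± 387 TPM in vehicle (SD, n = 3) and 3237 ± 179.9 TPM with Myr at 0 h, and 415 ± 35 and 393 ± 18 TPM at 1 h. MDH1, the malate dehydrogenase gene that closes the cycle, led at 0 h in vehicle with 872, 893 and 898 TPM, and held 655, 608 and 611 TPM in the Myr libraries, where it overlapped CIT1. At 1 h its libraries held 18.7, 17.6 and 17.5 TPM in vehicle and 21.5, 17.2 and 20.0 TPM with Myr. The hours were far apart and in vehicle MDH1 went from the first of the 10 genes to one of the lower ones, with a log2 change of -5.55 in vehicle (SE 0.14, adjusted p = 1.7e-27 from limma on log2(TPM + 1)) and of -4.93 with Myr. CIT1, which catalyses the entry of acetyl-CoA, held 661, 849 and 763 TPM in vehicle at 0 h and 30.2, 29.9 and 32.2 TPM at 1 h. That is a log2 change of -4.57 (SE 0.13), and with Myr CIT1 changed by -4.03.

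**Figure D1:**
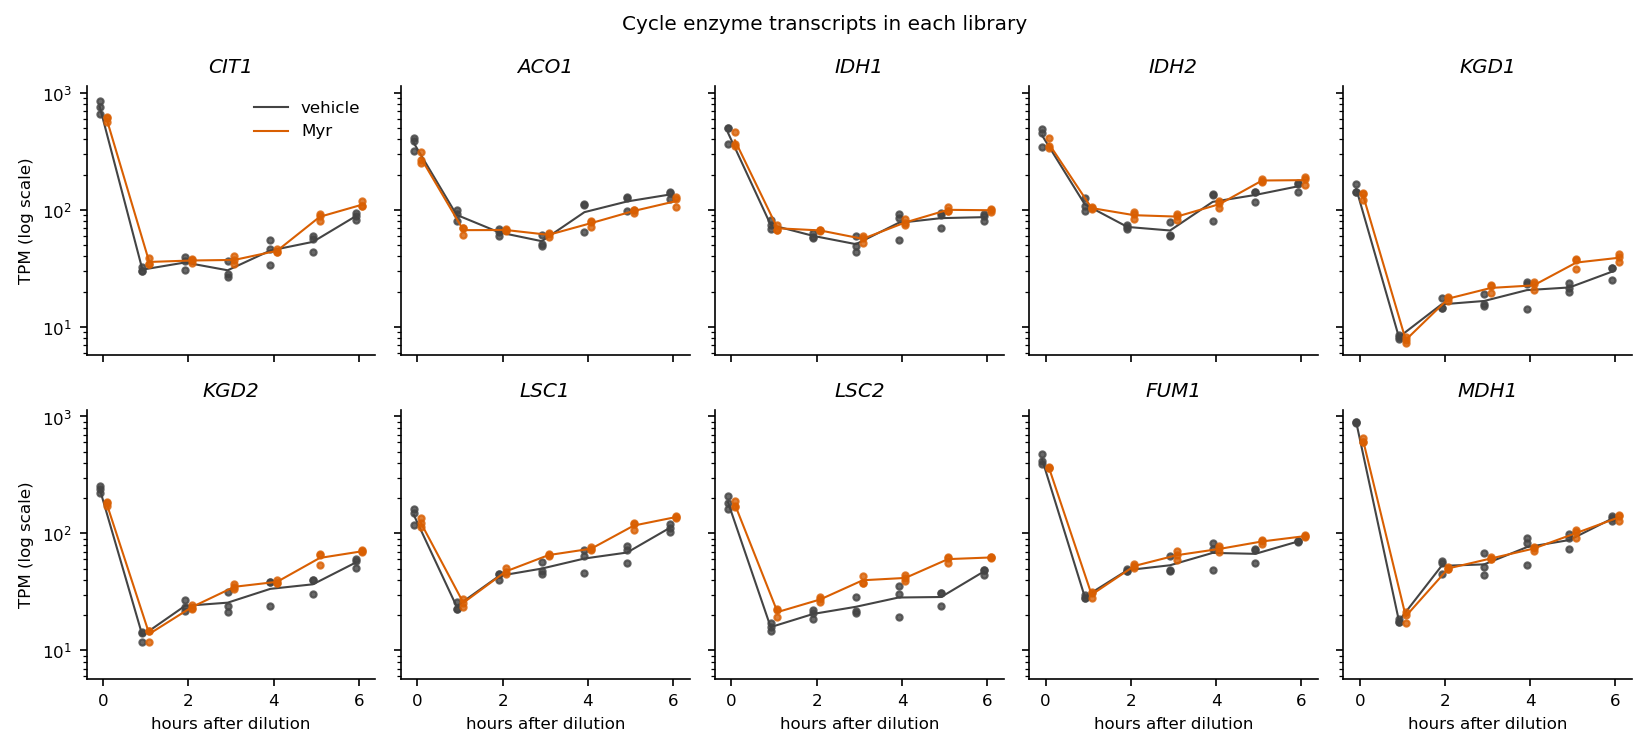
TPM of the 10 cycle genes (log scale) against hours after dilution, one panel a gene. Points are libraries, 3 in each group, and lines join group means, with vehicle in grey and Myr in orange. MDH1 and CIT1 drop furthest from 0 h to 1 h, ACO1, IDH1, IDH2 and LSC1 least, and LSC2 with Myr lies above vehicle at each hour from 1 to 6 h.

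All 10 genes were lower at 1 h than at 0 h in each treatment at an adjusted p under 0.05, where 52.7% of all 6002 genes tested were lower in vehicle and 55.7% with Myr. The size of the fall parted the enzymes. ACO1 (log2 change -2.02 in vehicle), IDH2 (-1.94), IDH1 (-2.58) and LSC1 (-2.53) fell least, and KGD1 (-4.05), KGD2 (-4.06), FUM1 (-3.85) and LSC2 (-3.46) came between them and CIT1. The median over the 10 was -3.65 in vehicle and -3.28 with Myr, beside -0.38 and -0.49 over all genes. In the ranking of all genes by this change, MDH1 had 0.6% of genes below it and IDH2 15.9%. The order of the levels changed with it. CIT1, ACO1, IDH1 and IDH2 held 49.6 ± 2.7% of the TPM of the 10 genes at 0 h in vehicle and 73.9 ± 1.4% at 1 h, and 50.4 ± 1.9% and 70.0 ± 0.45% with Myr. At 1 h in vehicle IDH2 (111 ± 15 TPM) and ACO1 (90.5 ± 9.4) were highest, with overlapping spreads, and KGD1 (8.14 ± 0.30) lowest. Spike-in RNAs also took a smaller share at 1 h than at 0 h. After scaling to them, the fall of ACO1 was -0.70 in vehicle and -0.37 with Myr and that of IDH2 -0.62 and -0.13, and both Myr values missed the test, while MDH1 still fell, by 4.28 and 3.30.

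From 1 h to 6 h the transcripts came back in part. With Myr all 10 were higher at 6 h than at 1 h (50.4% of all genes were) and in vehicle 9 were (43.2% of all genes), the other being IDH1 with a log2 change of 0.22 (SE 0.14, adjusted p = 0.17 from limma). MDH1 gained most, 2.83 on the log2 scale in vehicle (SE 0.14) and 2.75 with Myr, followed by LSC1 with 2.18 and 2.39. ACO1 gained 0.57 and 0.82 and IDH2 0.51 and 0.78. After spike-in scaling, ACO1, IDH1 and IDH2 missed the test in both treatments and the other 7 passed it. Against 0 h the return differed by gene. LSC1 libraries held 117, 151 and 162 TPM at 0 h and 102, 112 and 121 TPM at 6 h in vehicle, and 124, 113 and 134 TPM against 135, 139 and 141 TPM with Myr. LSC1 was thus at 77.8% of its 0 h mean in vehicle and 112% with Myr, the libraries of the 2 hours overlapping in vehicle and not with Myr. The other 9 genes stood at 11.6% (CIT1) to 36.8% (IDH2) in vehicle and at 18.5% (CIT1) to 49.0% (IDH2) with Myr.

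**Figure D2:**
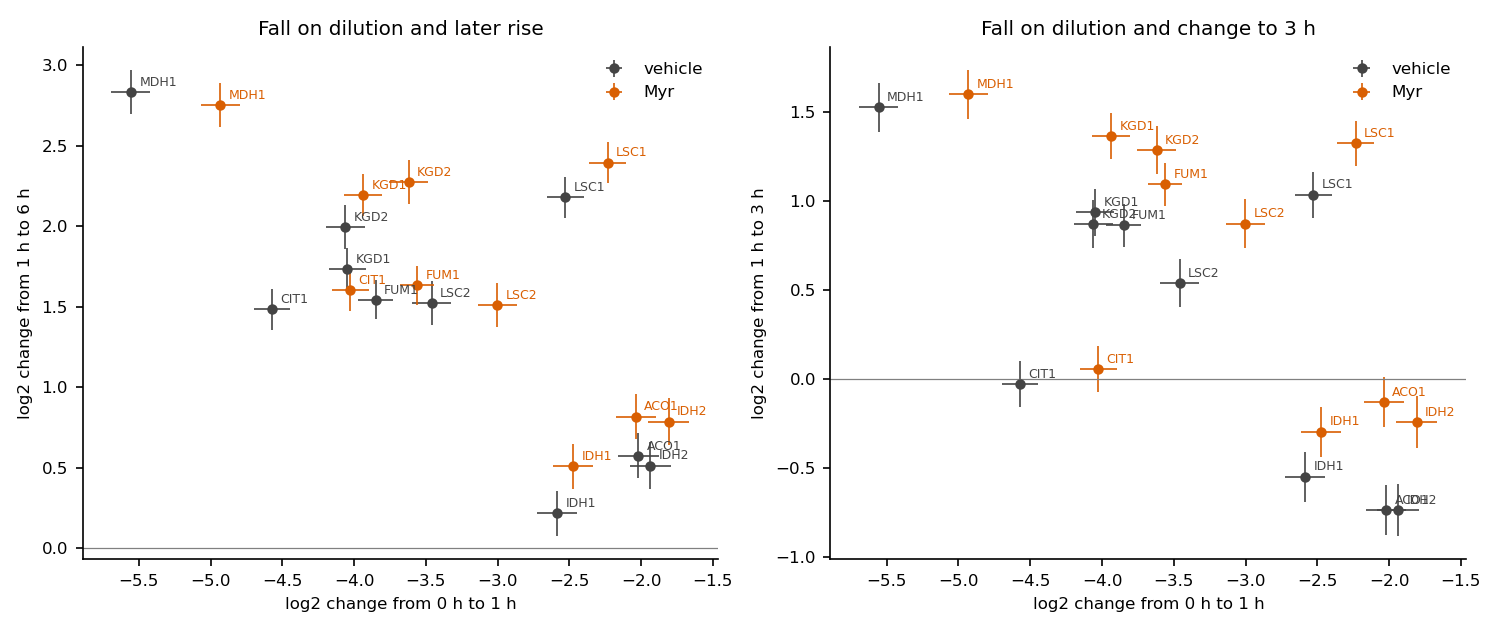
Log2 change from 1 h to 6 h (left) and from 1 h to 3 h (right) against the log2 change from 0 h to 1 h for each gene, in vehicle (grey) and Myr (orange), with bars of 1 SE from limma. On the left every gene lies above 0, IDH1 in vehicle by 0.22, and on the right ACO1, IDH1 and IDH2 lie below 0 in both treatments while KGD1, KGD2, LSC1, LSC2, FUM1 and MDH1 lie above 0.

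From 1 h to 3 h several genes before and after 2-oxoglutarate moved apart. This contrast was chosen after its values had been seen. ACO1 libraries in vehicle held 80.8, 91.1 and 99.6 TPM at 1 h and 50.8, 49.4 and 61.4 TPM at 3 h, without overlap, and IDH2 libraries 98.3, 108 and 127 TPM against 59.1, 61.3 and 79.0 TPM, also apart. From 1 h to 3 h in vehicle, ACO1 fell by 0.74 on the log2 scale (SE 0.14), IDH2 by 0.74 and IDH1 by 0.55, and CIT1 had a change of -0.03 that did not pass. In the same libraries KGD1, KGD2, LSC1, LSC2, FUM1 and MDH1 rose, by 0.54 (LSC2) to 1.53 (MDH1). This makes 6 genes higher and 3 lower in vehicle, where 21.6% of all genes were higher and 38.1% lower. With Myr the same 6 genes rose, by 0.87 (LSC2) to 1.60 (MDH1), and 0 of the 10 were lower, where 33.1% of all genes were higher and 23.5% lower. The other 4 then had changes of 0.06 (CIT1), -0.13 (ACO1), -0.24 (IDH2) and -0.30 (IDH1), none of them past the test, and at an unadjusted p under 0.05 IDH1 alone passed. After median centring ACO1, IDH1 and IDH2 were lower with Myr as well (-0.23, -0.40 and -0.34), where 2043 of all genes were lower. Without the 4 libraries of high RPL41A, IDH1 in vehicle was no longer called (-0.30).

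The shapes of the time courses differed along similar lines, with CIT1 between the sets. Hourly means of 1 to 6 h were correlated with 10 templates and their mirror images, with a minimum R of 0.85. KGD1, KGD2, LSC1, LSC2, FUM1 and MDH1 matched a steady rise best in both treatments (R between 0.936 and 0.982). With Myr, CIT1, ACO1, IDH1 and IDH2 matched a step up after 4 h best (R = 0.976, 0.929, 0.891 and 0.961). In vehicle CIT1 matched the steady rise (R = 0.896), and ACO1, IDH1 and IDH2 reached no template. These sets also differed in likeness. Over the 12 group means of 1 to 6 h, Pearson's r had a median of 0.884 over the 6 pairs among CIT1, ACO1, IDH1 and IDH2, of 0.969 over the 15 pairs among the other 6 genes and of 0.589 over the 24 pairs between the sets. CIT1 did not follow this division, being as close to KGD2 (0.877), LSC1 (0.872) and LSC2 (0.863) as to IDH1 (0.846) and ACO1 (0.798). These r are descriptions over means that share libraries. The closest pair was KGD2 with LSC1 (r = 0.998), and IDH1 was closest to IDH2, ACO1 to IDH2, KGD1 to LSC1, LSC2 to LSC1, FUM1 to KGD1, MDH1 to FUM1 and CIT1 to IDH2.

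**Figure D3:**
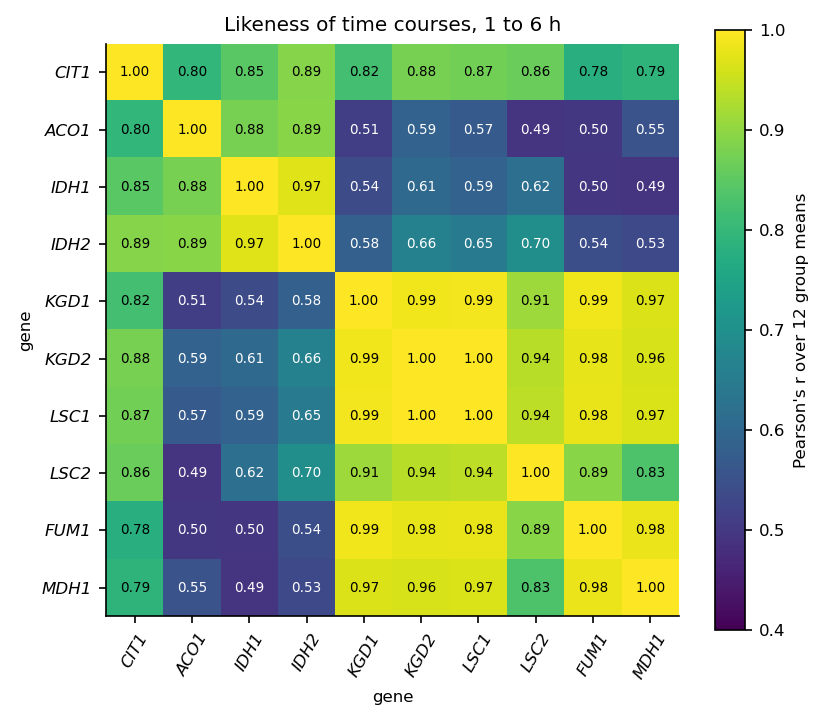
Pearson's r between the time courses of each pair of cycle genes over 12 group means of log2(TPM + 1), 1 to 6 h in both treatments; colour runs from 0.4 to 1. The block of KGD1 to MDH1 holds the highest values, with KGD2 and LSC1 at 0.998, and the values between that block and ACO1, IDH1 and IDH2 are lower, down to 0.489 for ACO1 and LSC2.

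All 10 genes had a time effect at p of 0.01 or less over 1 to 6 h, as had 86.5% of the 5983 genes tested. In the drug effect, the mean of the 6 hourly differences, 7 of the 10 genes were higher with Myr and 0 lower, where 64.5% of all genes were higher and 5.65% lower. The share raised is thus near that of all genes, and the genes differed among themselves. LSC2, the beta subunit of succinyl-CoA ligase, was raised most, by 0.60 on the log2 scale (SE 0.06, adjusted p = 4.2e-10 from limma), above 97.2% of genes. LSC1 (0.33), KGD2 (0.29), KGD1 (0.28), CIT1 (0.27), IDH2 (0.20) and FUM1 (0.19) rose too, and IDH1 had a value of 0.12 and MDH1 of 0.08. ACO1 stood at the other end with -0.15 (SE 0.06, adjusted p = 0.020 from limma), above only 6.25% of genes, and missed the limit, which is set on the unadjusted p. After median centring LSC2 (0.42), LSC1 (0.16), KGD2 (0.12), KGD1 (0.11) and CIT1 (0.10) stayed higher and ACO1 was lower (-0.32), as were 1213 of all genes. After spike-in scaling all 10 were higher, ACO1 by 0.43. Most genes moved up with this scaling: 5673, 5668 and 5434 of all 5983 were higher with Myr at 2, 3 and 4 h. The treatments held different spike-in mixes, and each was scaled to its own 0 h libraries. The scaled values thus take the treatments as level at 0 h, which was not tested. Spike-ins there held 0.88% of TPM in vehicle and 1.25% with Myr. ACO1 was also lower (-0.24) without the 4 libraries of high RPL41A, and when 1 of 3 vehicle libraries was left out (1 h A, 4 h B or 5 h A, -0.16, -0.19 and -0.17).

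By hour, the drug difference was seen most at 5 h. There 7 of the 10 genes were higher with Myr and 0 lower, where 52.2% of all genes were higher and 3.99% lower, with a median over the 10 of 0.55 beside 0.31 over all genes. LSC2 libraries at 5 h held 24.2, 30.8 and 30.9 TPM in vehicle and 55.6, 63.4 and 61.9 TPM with Myr, with every Myr library above every vehicle library. The log2 fold change was 1.06 (SE 0.14, adjusted p = 2.7e-07 from limma), a ratio of means of 2.11. CIT1 libraries held 43.8, 59.1 and 56.5 TPM in vehicle and 80.2, 92.3 and 88.7 TPM with Myr, also without overlap. CIT1 was higher by 0.71 (SE 0.13), LSC1 by 0.77, KGD2 by 0.74, KGD1 by 0.68, IDH2 by 0.41 and FUM1 by 0.36. ACO1, the enzyme that follows CIT1 in the cycle, held 97.7, 126 and 129 TPM in vehicle and 94.1, 98.8 and 100 TPM with Myr at the same hour. These libraries overlapped and the difference of -0.26 (SE 0.14, adjusted p = 0.11 from limma) was not called, nor were those of IDH1 (0.25) and MDH1 (0.20). After median centring 5 genes stayed higher at 5 h (LSC2 0.74, LSC1 0.45, KGD2 0.42, CIT1 0.39 and KGD1 0.36), ACO1 was lower (-0.57), and IDH2 (0.10), FUM1 (0.04), IDH1 (-0.07) and MDH1 (-0.11) were not called. Centring left 1274 of all 5983 genes lower at 5 h, against 239 as deposited. Without vehicle library 5 h A, which held high RPL41A, IDH2 (0.32) and FUM1 (0.23) lost the call and ACO1 was lower (-0.38). FUM1 (0.34) also lost it without Myr library 5 h C. ACO1 at 5 h was lower too without vehicle library 4 h B, which lowers the pooled spread and leaves the value as it is.

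**Figure D4:**
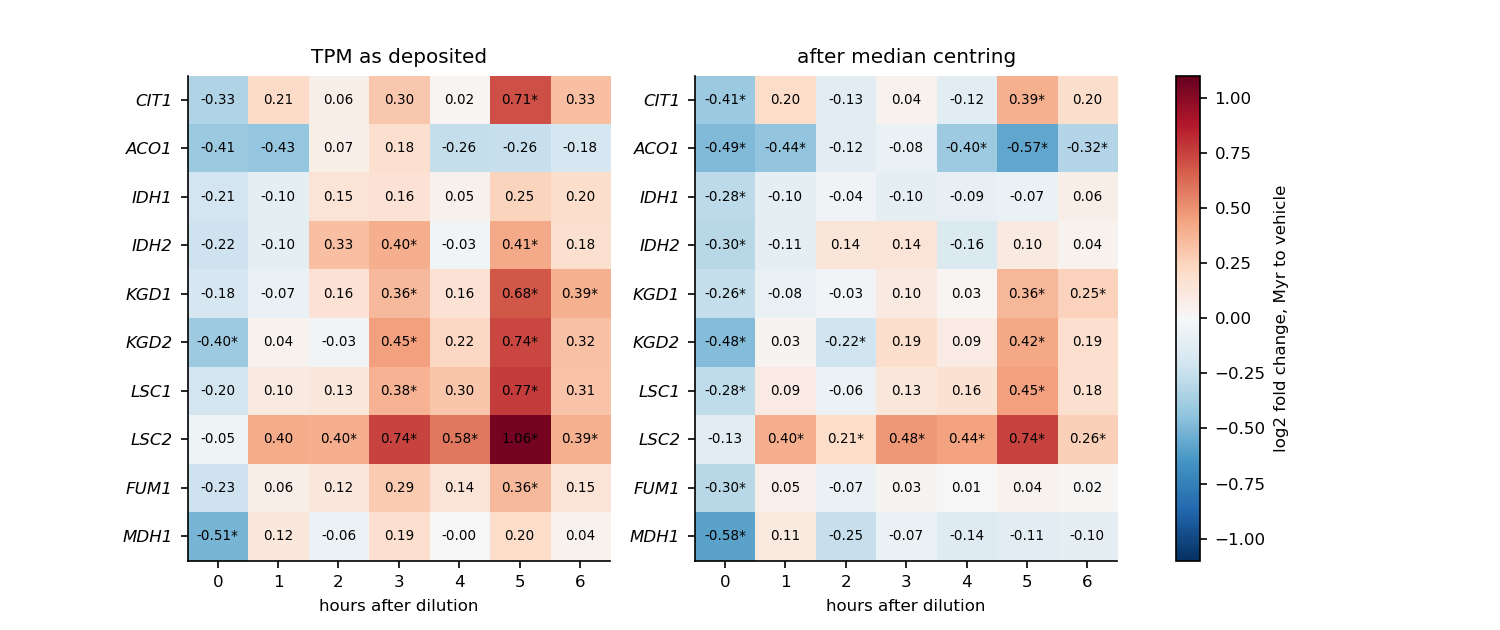
Log2 fold change of Myr to vehicle for each gene (rows) and hour (columns), from TPM as deposited (left) and after median centring (right); red is higher with Myr, blue lower, and an asterisk marks an adjusted p under 0.05 from limma. LSC2 at 5 h (1.06) is the highest value, ACO1 is below 0 at 0, 1, 4, 5 and 6 h on the left and at every hour on the right, and 9 genes at 0 h are called lower after centring, where 824 of all genes are.

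At the other hours fewer genes were called. At 1 h there were 0 of 10 in either direction (2.42% of all genes were higher and 3.01% lower), and at an unadjusted p under 0.05 ACO1 (-0.43) and LSC2 (0.40) passed. At 2 h LSC2 was higher (0.40) and 0 genes lower, where 16% of all genes were higher and 2.49% lower, and at 4 h again LSC2 (0.58) beside 0 lower, where 6.12% were higher and 0.953% lower. At 3 h LSC2 (0.74), KGD2 (0.45), IDH2 (0.40), LSC1 (0.38) and KGD1 (0.36) were higher and 0 lower, where 39.4% of all genes were higher and 2.62% lower. After median centring or without the 4 libraries of high RPL41A only LSC2 stayed, where 223 and 80 of all genes were higher. Leaving out 1 of 4 libraries (vehicle 3 h A or B, Myr 3 h A or B) also ended the calls of IDH2, KGD1, KGD2 and LSC1. At 6 h KGD1 (0.39) and LSC2 (0.39) were higher and 0 lower, where 19.6% of all genes were higher and 3.43% lower. With the column letter as a random block 0 were called at 6 h, where 1055 of all genes were higher. Leaving out any 1 of the 6 libraries of that hour ended the call of LSC2 (0.35 to 0.42), and leaving out vehicle 6 h A, Myr 6 h A or Myr 6 h C ended that of KGD1 (0.28, 0.34 and 0.38). LSC2 thus stood above vehicle at each hour from 1 to 6 h without overlap of libraries, for example 14.5, 15.8 and 17.2 TPM against 22.6, 22.0 and 19.2 TPM at 1 h and 44.3, 48.7 and 48.8 TPM against 62.6, 62.8 and 61.6 TPM at 6 h. The share of genes with all Myr libraries above all vehicle libraries was 8.96% at 1 h, 53.4% at 2 h, 42.6% at 3 h, 16.7% at 4 h, 64.7% at 5 h and 43.8% at 6 h. At the low counts of calls, single libraries decided: LSC2 at 2 h lost its call in many of the settings that leave out a library, and at 4 h without vehicle library 4 h B (0.34) or Myr library 4 h A (0.54).

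At 0 h the Myr group stood lower. KGD2 (-0.40) and MDH1 (-0.51, SE 0.14, adjusted p = 0.014 from limma) were lower, where 3.68% of all genes were, and 6 of the 10 genes had all 3 Myr libraries below all 3 vehicle libraries, as had 7.75% of all genes. KGD2 lost its call in 27 of the 42 fits that each leave out 1 library. With each hour fitted alone 0 of the 10 were lower, but so was only 1 of all genes. After median centring 9 of the 10 genes were lower at 0 h, by -0.26 (KGD1) to -0.58 (MDH1), the exception being LSC2 (-0.13). In that fit 824 of all 6002 genes were lower. After spike-in scaling 0 of the 10 were called, where 4 of all genes were lower. That scaling sets each treatment to its own 0 h libraries, so it leaves the mean 0 h difference nearly as it is and cannot test it. The higher values with Myr at 5 h thus followed lower ones at 0 h.

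KGD2 and LSC1 had an interaction of drug and hour (adjusted p = 0.033 and 0.039 from limma), where 22.6% of all genes had one at the limit of 0.01 on the unadjusted p. CIT1, LSC2 and KGD1 lay just past this limit (adjusted p = 0.045, 0.045 and 0.048 from limma), and FUM1 and MDH1 far past it (adjusted p = 0.63 and 0.78 from limma). These counts rested on single libraries: without vehicle library 4 h B, 7 genes had an interaction, and without vehicle library 5 h A neither KGD2 nor LSC1 had one. The counts of all genes without 1 library are not given here. Without all 4 libraries of high RPL41A, 8 of the 10 and 2231 of all genes had an interaction, against 1355 of all genes in the main fit. LSC1 lost its interaction call in 23 of the 42 fits that each leave out 1 library, and KGD2 in 9. The step from 4 h to 5 h was then compared between treatments. Between these hours 8 of the 10 genes rose with Myr (31.6% of all genes) and 0 in vehicle (1.23%). After spike-in scaling 0 of the 10 rose with Myr, where 207 of all genes did, against 1894 as deposited. In TPM as deposited, IDH1 lost its call in 20 of the 42 fits that each leave out 1 library. At an unadjusted p under 0.05 in limma, 1 gene passed in vehicle, ACO1. CIT1 libraries with Myr held 46.5, 43.7 and 43.6 TPM at 4 h and 80.2, 92.3 and 88.7 TPM at 5 h, and in vehicle 33.5, 46.2 and 54.6 TPM and 43.8, 59.1 and 56.5 TPM. The hours were apart with Myr and overlapped in vehicle. The difference of the steps was 0.69 for CIT1 (SE 0.18, adjusted p = 0.0086 from limma), the only one of the 10 called, where 11.3% of all genes were. ACO1, with steps of 0.34 and 0.33, had a difference of 0.01. Without vehicle library 4 h B, the low library of its group for all 10 genes, 8 genes had a called difference, and without vehicle library 4 h D that of CIT1 (0.53) was not called. Without all 4 libraries of high RPL41A, 7 of the 10 and 1671 of all genes had a larger step with Myr, against 678 of all genes in the main fit.

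Ratios within a library do not depend on the scaling of libraries, and they set the enzymes apart without it. The log2 ratio of ACO1 to CIT1, chosen after the values had been seen, was 1.16, 1.09 and 1.20 in the vehicle libraries of 5 h and 0.23, 0.10 and 0.18 in the Myr libraries. At 6 h it was 0.59, 0.69 and 0.57 against 0.25, -0.16 and 0.21. The Myr libraries lay below the vehicle libraries at 1, 3, 4, 5 and 6 h and overlapped them at 0 and 2 h. At 0 h both treatments had about -1, so that CIT1 was the more abundant transcript in the saturated culture and ACO1 the more abundant at 1 to 5 h. The ratio of ACO1 to IDH2, also chosen after the values had been seen, was lower with Myr at each of the 7 hours without overlap, with a difference of the means of -0.19 at 0 h, of -0.22 to -0.34 at 1 to 4 h, of -0.67 at 5 h and of -0.36 at 6 h. ACO1 to IDH1 was lower without overlap at 0 h (-0.20), 1, 4, 5 and 6 h, and overlapped at 2 h (-0.09) and 3 h (0.03). These ratios and those of the subunits below were not tested. How often other pairs of genes part without overlap was not counted.

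Of the pairs of subunits, LSC1 to LSC2 was lower with Myr at each of the 7 hours without overlap. At 5 h the log2 ratio was 1.20, 1.24 and 1.33 in vehicle and 0.94, 0.95 and 0.97 with Myr, and at 0 h -0.48, -0.46 and -0.17 against -0.48, -0.58 and -0.50, and the groups were apart by less than 0.01 at 0, 1 and 6 h. Over time the ratio turned round, from more LSC2 than LSC1 at 0 h to more LSC1 at each later hour. IDH1 to IDH2 was 0.08 ± 0.07 at 0 h in vehicle and -0.87 ± 0.05 at 6 h, and 0.10 ± 0.06 and -0.85 ± 0.16 with Myr, and the treatments were apart only at 3 h. KGD1 to KGD2 stayed between -0.43 and -0.93 in all 14 group means, so that KGD2 was the more abundant throughout, and the ratio was higher with Myr without overlap at 0 h (by 0.22) and 2 h (by 0.20). The sums of the whole group of enzymes, 932 ± 63 TPM in vehicle and 1050 ± 14 TPM with Myr at 6 h, hold these shifts within them.

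**Figure D5:**
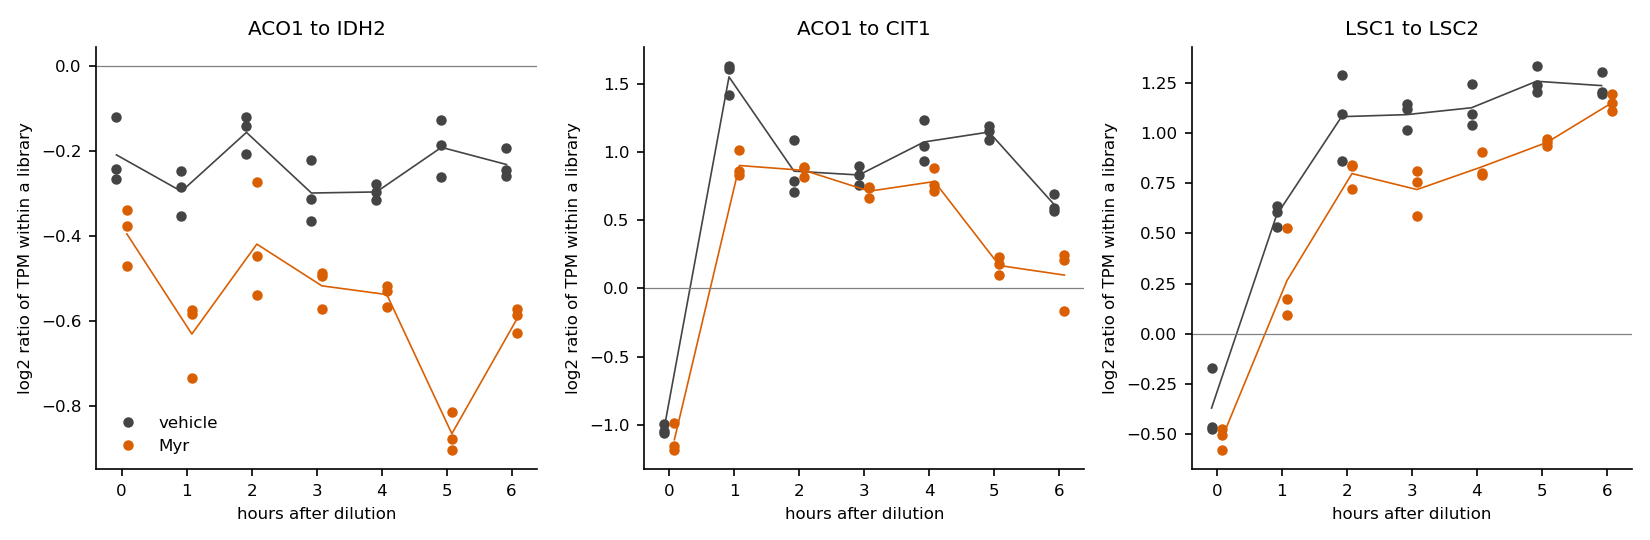
Log2 ratio of TPM within a library for ACO1 to IDH2, ACO1 to CIT1 and LSC1 to LSC2 against hours after dilution, with points for libraries (3 in each group), lines through group means, vehicle in grey and Myr in orange. Myr libraries lie below vehicle libraries at every hour for ACO1 to IDH2 and LSC1 to LSC2, and for ACO1 to CIT1 most at 5 h, where the means are 1.15 and 0.17.

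Most of the other mitochondrial genes of the cycle fell on dilution and rose again. Of 8 genes, 7 fell from 0 h to 1 h and 7 rose from 1 h to 6 h in each treatment, beside the 52.7% and 55.7% of all genes that fell and the 43.2% and 50.4% that rose in vehicle and with Myr, and 7 were higher with Myr at 5 h (median 0.67). SDH4 (1.32), SDH1 (0.89) and SDH2 (0.87), subunits of succinate dehydrogenase, and KGD4 (0.69), a subunit of 2-oxoglutarate dehydrogenase, led at 5 h. At 6 h 5 of the 8 were higher, SDH4 by 0.76 and SDH2 by 0.65. Among 8 isoforms outside the cycle and glyoxylate enzymes, all fell on dilution, but CIT2, the peroxisomal citrate synthase and a known Rtg target, and MLS1, malate synthase, were lower still at 6 h than at 1 h (CIT2 by -2.01 in vehicle and -1.52 with Myr). At 5 h 5 of them were higher with Myr, among them MDH2 (0.67), the cytosolic malate dehydrogenase, CIT2 (0.48), IDP3 (0.37) and IDP1 (0.34), and at 6 h CIT2 (0.44) and MDH2 (0.46).

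Of the 7 carriers of cycle acids, OAC1 (0.94), which carries oxaloacetate, and ODC1 (0.73), which carries 2-oxoglutarate, were higher with Myr at 5 h. At 6 h ODC1 was higher (0.58) and DIC1 (-0.92), the dicarboxylate carrier, and OAC1 (-0.47) lower. Of the 8 genes that feed or drain the cycle, PYC1 (1.53), a pyruvate carboxylase, GDH1 (1.26), GDH2 (0.47) and GDH3 (0.35), glutamate dehydrogenases, were higher at 5 h, and PYC1 (1.05) and GDH2 (0.30) at 6 h. Of the 8 Hap and Rtg regulators, 6 were higher at 5 h, HAP2 (0.63), RTG2 (0.60), RTG3 (0.57) and HAP5 (0.53) most, and RTG2 (0.40) and HAP2 (0.36) at 6 h. HAP4, the activating subunit of the Hap complex, fell by 2.81 from 0 h to 1 h in vehicle and had a change of 0.03 from 1 h to 6 h. The counts of genes higher in these lists stand beside the 52.2% and 19.6% of all genes that were higher at 5 h and at 6 h. DIC1 and OAC1, lower at 6 h, stand beside 3.43% of all genes. Drug values of these lists are as deposited and were not median centred. The median over all genes was 0.31 at 5 h and 0.15 at 6 h, and the smaller values, such as GDH3 (0.35) at 5 h, lie near it.

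The 10 other genes whose group means followed the mean standardized course of the cycle genes most closely, among 5137 with a mean of at least 10 TPM, were YHR112C, GIS1, TLG2, YLR177W, HST2, VHS3, PFK26, ACS2, CBP4 and INM2 (Pearson's r between 0.993 and 0.995 over 14 group means). Since the drop after 0 h dominates these means, over the 12 means of 1 to 6 h only HST2 was again among the 10, beside GAL83, YJL068C, LYS1, IDP1, SNF4, YMR315W, YSC84, YMR027W and PAM1.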

How the data were processed

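mRNA of 42 yeast samples was sequenced. Per the methods and the submitters' notes, the authors used bcl2fastq 2.17.1.14 for base calls, Trimmomatic 0.36 for trimming and Salmon 0.8.2 to quantify R64 transcripts and spike-ins, and deposited TPM, transcripts per 1000000, for 6198 features, 92 of them spike-ins. Values of a library add to 1000000 over all features, so each gene depends on the rest of its library. All 42 columns were used, and 6103 gene identifiers matched the R64 annotation. Depth is unknown, and libraries of a group correlated at r between 0.975 and 0.995.

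Genes averaging 1 TPM or more over the fitted libraries were analysed with limma 3.58.1 (R 4.3.3) on log2(TPM + 1), with empirical Bayes and a variance trend, as 12 group means over the 36 libraries of 1 to 6 h (5983 genes) or, where 0 h or a change between hours entered, 14 group means over 42 (6002 genes). All 10 genes passed the filter. Fold changes are on the log2(TPM + 1) scale, which understates low genes. Time, drug and interaction terms were called at p of 0.01 or less, as in the study, and other contrasts at a Benjamini-Hochberg adjusted p under 0.05. The code was tested on simulated data. Patterns, likeness and figures used Python 3.11.15.

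The genes and lists were chosen with earlier results of these data known. Named were the 10 genes, of each other list up to 4 called genes with the largest change at 5 h and 6 h and any called the other way, the 10 most alike genes, each gene's closest fellow and marker genes. Time changes of CIT2, MLS1 and HAP4, the 1 h to 3 h contrast and the ratios of ACO1 were added after values were seen. The values of 1 gene of a list are not reported here. Planned protein comparisons were not run, and promoters were read from the genome. Other settings tried were the pseudocount, the filter, median centring, spike-in scaling, removal of a trend on coding length, no variance trend, each hour alone, no log, leaving out libraries and the letter as a block. Spike-in scaling set each library against the 0 h libraries of its own treatment.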

Additional observations from a re-analysis of the deposited data

Results flagged for a closer look

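A few results differed between hours within the drug comparison. KGD2 and LSC1 had an effect of Myr that differed between the hours of 1 to 6 h in the interaction test (adjusted p = 0.03277 and 0.03872 from limma), with log2 fold changes at 5 h of 0.74 and 0.77 and at 1 h of 0.04 and 0.10. These are 2 of the 10 genes, and 22.6% of all genes were called in that test, so the count is near that of all genes. Of the 42 fits that each leave out 1 library, 9 ended the call of KGD2 and 23 that of LSC1. For CIT1 the step from 4 h to 5 h was larger with Myr than in vehicle by 0.69 on the log2 scale (SE 0.18, adjusted p = 0.0086 from limma), higher at 5 h in 3 of 3 Myr libraries than in any Myr library of 4 h. Such a larger step was called for 11.3% of all genes. Vehicle library 4 h B, which had RPL41A above 70000 TPM, stood lowest of its group for all 10 genes, and its part in these results is given by the values without it: 7 of the 10 genes then had an interaction and 8 a called difference of the steps. The counts of all genes without this 1 library are not given here. Without all 4 libraries of high RPL41A they were 2231 and 1671, against 1355 and 678 in the main fit. Groups hold 3 libraries, too few to look for single outlying values.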

How the results depend on the processing

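The falls from 0 h to 1 h and the rises from 1 h to 6 h were reversed in none of the settings tried, and the 7 genes higher with Myr at 5 h stayed 5 or more in all settings. Spike-in scaling sets each treatment to its own 0 h libraries. Its counts for Myr against vehicle take the treatments as level at 0 h, and its count at 0 h cannot test the difference there. Counts of called genes among the 10 moved by more than 1.5 times as follows, with the main count first for each result. The cause of these moves was not tested. Square brackets hold the number of all genes called in the same direction and fit, beside which a count is to be read. The interaction (2 genes [1355]) had 5 with a pseudocount of 10 [1521], without the log [1844] or with an adjusted p under 0.05 [1425]. It had 5 too with the letter block [1651] or after removing the length trend [2178], and 4 with a minimum mean of 10 TPM [1129]. There were 6 after median centring [2046], 1 after spike-in scaling [859] and 8 without the 4 libraries of high RPL41A [2231]. The drug effect (7 higher [3857], 0 lower [338]) had 3 higher after removing the length trend [1296]. It had 1 lower (ACO1) there [1353], after median centring [1213], without the 4 libraries [343], without the log [351] and with an adjusted p under 0.05 [388]. At 0 h (2 lower [221]) there were 1 with a pseudocount of 0.1 [210], 4 with 10 [340] and 5 without the 4 libraries [405]. There were 9 after median centring [824] or removing the length trend [840], and 0 after spike-in scaling [4] or with each hour alone [1]. At 1 h (0 higher [145], 0 lower [180]) 1 was higher after median centring [387], spike-in scaling [314], removing the length trend [442] or without the 4 libraries [325]. In the other direction 1 was lower after median centring [334], removing the length trend [388], without the 4 libraries [336] or with each hour alone [192]. At 2 h (1 higher [957], 0 lower [149]) 0 were higher with a pseudocount of 10 [940] and 10 after spike-in scaling [5673]. There were 2 higher without the 4 libraries [2626] or with each hour alone [2375]. Lower were 1 after median centring [500] and 2 after removing the length trend [324]. At 3 h (5 higher [2355]) there was 1 after median centring [223], removing the length trend [254], without the 4 libraries [80] or with each hour alone [348]. After spike-in scaling there were 10 [5668]. At 4 h (1 higher [366], 0 lower [57]) 9 were higher after spike-in scaling [5434] and 0 with each hour alone [66]. Here 1 was lower after median centring [225], removing the length trend [290] or without the 4 libraries [86]. At 5 h (0 lower [239]) 1 was lower in the same 3 settings [1274, 1629 and 260]. At 6 h (2 higher [1173], 0 lower [205]) 4 were higher with a pseudocount of 10 [1305] and 8 after spike-in scaling [2899]. There were 6 higher without the 4 libraries [1985] or with each hour alone [1845] and 0 with the letter block [1055]. Of lower genes there was 1 after median centring [690] or removing the length trend [982]. From 4 h to 5 h in vehicle (0 higher [74]) 1 was higher after median centring [324] or removing the length trend [324]. With Myr (8 higher [1894]) 0 were after spike-in scaling [207]. From 1 h to 3 h with Myr (0 lower [1409]) 3 were lower after median centring [2043] or removing the length trend [2020]. There were 2 without the 4 libraries [1555] and 1 with the letter block [1493]. The difference of the 4 h to 5 h steps (1 higher [678]) had 3 after median centring [601] or with a pseudocount of 10 [810]. It had 2 after removing the length trend [537], 0 after spike-in scaling [75] and 7 without the 4 libraries [1671]. Of the 10 most alike genes, 1 was shared with the 10 over 12 means.

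Values that changed sign were, after median centring, the drug effect of IDH1 (-0.057) and MDH1 (-0.095), ACO1 at 2 h (-0.12) and 3 h (-0.076), and IDH1 (-0.070) and MDH1 (-0.11) at 5 h. After removing the length trend they were the drug effect of IDH1 (-0.072), FUM1 (-0.015) and MDH1 (-0.10), ACO1 at 2 h (-0.22) and 3 h (-0.13), and IDH1 (-0.13), FUM1 (-0.026) and MDH1 (-0.17) at 5 h. After spike-in scaling they were ACO1 in the drug effect (0.43), at 4 h (0.35), 5 h (0.24) and 6 h (0.17), and IDH1 from 4 h to 5 h with Myr (-0.013). Without the 4 libraries they were the drug effect of MDH1 (-0.036) and ACO1 at 3 h (-0.0092).

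With each library left out in turn (42 fits), the counts ranged from 0 to 1 lower in the drug effect, 0 to 7 for the interaction, 0 to 4 lower at 0 h, 0 to 1 in either direction at 1 h, 0 to 2 higher at 2 h, 1 to 8 higher at 3 h, 0 to 2 higher and 0 to 1 lower at 4 h, 0 to 1 lower at 5 h, 0 to 5 higher at 6 h, 0 to 1 lower from 1 h to 3 h with Myr, and 0 to 8 for the difference of the steps. No paired analysis was possible by replicate number, because the columns carry letters and not the numbers of the labels. A fit with the letter in its place could be made. With the column letter as a random block, whose correlation was estimated at 0.18, 3 values gained a call and 5 lost it. With 3 libraries a group and no counts, the smallest called drug difference at a single hour was 0.36 on the log2 scale (KGD1 at 3 h), and ACO1 at 1 h with -0.43 was not called.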
